A study of Mus musculus with 16 samples.

Results

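Asns, Glul, Glud1, Got1, Got2, Gpt2, Aldh18a1, Pycr1 and Oat encode enzymes that make or interconvert asparagine, glutamine, glutamate, aspartate, alanine, proline and ornithine. They were chosen by gene symbol as a set of enzymes around glutamine, asparagine and proline, and not by a threshold on their values. The fall of Asns was already known from these data when the set was chosen. These 9 genes are 9 of the 27179 rows of the count table, and all 9 were among the 14288 genes that passed the filter on low counts. Their RNA was measured by sequencing of mouse embryonic stem (ES) cells, cultured cells that keep the naive pluripotency of the early embryo, as they left that state.

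Cells from serum-containing medium with leukaemia inhibitory factor (LIF) were first adapted for 3 passages to either of 2 media. Both held LIF, 2 mM glutamine and 2i, which is 3 uM CHIR99021 (an inhibitor of the kinase GSK3) with 1 uM PD0325901 (an inhibitor of the kinase MEK). The medium named 2i/LIF was serum-free and built on DMEM/F-12 and Neurobasal, and the medium named serum/LIF+2i was knockout DMEM with 10% fetal bovine serum. At release, 2i and LIF were withdrawn, also from the cells that had been in serum, and cells were collected at 0, 12, 24 and 40 h. The 2i/LIF cells kept the base of their medium, whereas cells from serum/LIF+2i moved to a serum-free mix of glutamine-free DMEM and Neurobasal with 2 mM glutamine added back. Thus loss of serum and a change of base medium accompanied release in 1 arm only, and these cannot be told apart from the maintenance medium. Each of the 8 groups had 2 libraries. The labels do not say that replicates were separate cultures, so p-values measure only the spread between these libraries. Bulk RNA was measured, so fewer cells of a kind and less RNA per cell cannot be told apart.

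Asparagine synthetase, encoded by Asns, transfers the amide nitrogen of glutamine to aspartate, and glutamine synthetase, encoded by Glul, makes glutamine from glutamate and ammonia. Glutamate is linked to the citric acid cycle by glutamate dehydrogenase (Glud1), by cytosolic and mitochondrial aspartate aminotransferase (Got1 and Got2) and by mitochondrial alanine aminotransferase (Gpt2), and it is the precursor of proline through Aldh18a1 and Pycr1, while Oat joins the same intermediate to ornithine. Asns is a textbook target of the amino acid response, in which shortage of an amino acid activates the kinase GCN2 and raises the transcription factor ATF4. ATF4 binds C/EBP-ATF response elements in its target genes.

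Total counts per library ranged from 5931381 to 11142744, and the lowest count of any of the 9 genes in any library was 173. Ribosomal RNA genes took 0.468% to 1.77% of the counts. Replicates differed by more than sampling noise in every group, with a chi-square per degree of freedom of 1.35 to 2.88 across genes, so no library was counted as a copy of another. All 10 ES cell markers were detected in every group, and their summed level, in CPM (counts relative to the library total, scaled by the trimmed mean of M values, TMM), went from between 7685 and 8186 at 0 h to between 2194 and 2303 at 40 h. Among markers of other cells, 8 trophoblast genes summed to between 89.2 and 96.3 CPM at 0 h and to between 11.6 and 19.1 at 40 h, and 8 primitive endoderm genes to between 8.79 and 19.8 CPM at 0 h and between 30.2 and 43.2 at 40 h. For 8 fibroblast genes the sums lay between 4.41 and 23.5 CPM in all libraries, and for 6 genes of the 2-cell-like state they lay between 0.881 and 6.89 CPM at 0 h and between 16.4 and 40.0 at 40 h. Of the fibroblast, primitive endoderm and trophoblast genes, the highest counts in any library were those of Dcn (107), Col4a1 (307) and Tfap2c (425), and the lowest maxima those of Postn (0), Sox17 (5) and Elf5 (2). The part of these shifts in the values below was not tested.

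Per gene length (RPKM, CPM per kilobase of the deposited gene length), Asns had the highest level of the 9 genes in every group and Pycr1 the lowest. In 2i/LIF at 0 h the order was Asns at 658 ± 1.29 (SD, n = 2), Glud1 at 142 ± 1.08, Got1 at 118 ± 0.0585, Oat at 83.6 ± 2.05, Glul at 58.3 ± 3.84, Got2 at 50.8 ± 1.02, Gpt2 at 37.4 ± 3.37, Aldh18a1 at 34.5 ± 1.88 and Pycr1 at 10.8 ± 0.838 RPKM. Libraries of neighbours in this order overlapped only for Gpt2 and Aldh18a1. By 40 h in 2i/LIF, Glul had moved to 8th place at 44.0 ± 0.447 RPKM, below Got2 (75.6 ± 2.09), Aldh18a1 (59.6 ± 5.03) and Gpt2, and Oat (77.0 ± 0.0118) and Got2 were the neighbours whose libraries overlapped. In serum/LIF+2i at 40 h, Glul was likewise 8th at 41.1 ± 1.24 RPKM, and Got1 (106 ± 7.61) and Glud1 (103 ± 0.288) overlapped behind Asns (297 ± 6.59).

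**Figure D1:**
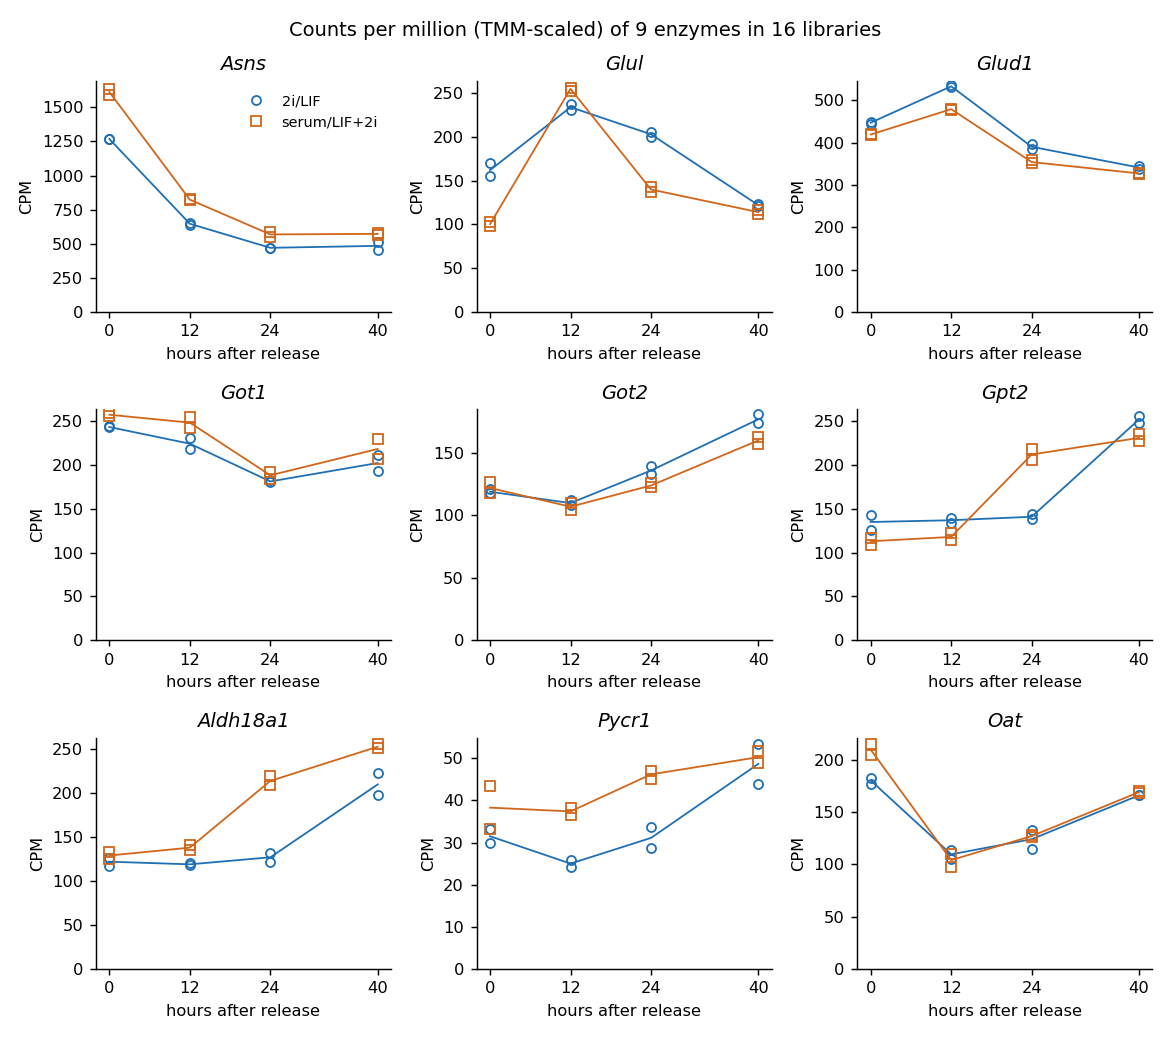
CPM of each of the 9 enzymes (vertical axis, from 0) against hours after release (horizontal axis). Points are single libraries, 2 per group, and lines join group means, with circles for 2i/LIF and squares for serum/LIF+2i. Asns was lower at every later time than at 0 h, Glul peaked at 12 h, and Gpt2 and Aldh18a1 were already high at 24 h in serum/LIF+2i but not in 2i/LIF.

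For each medium separately, each later time was compared with 0 h by the quasi-likelihood F test of edgeR. The p-values were adjusted over all 14288 genes tested (Benjamini-Hochberg), with 0.05 as the threshold for a call. In 2i/LIF, 6 of the 9 genes were called at 12 h, 2 higher and 4 lower, when 44.7% of all genes tested were called, 21.0% higher and 23.7% lower. At 24 h 6 were called, 2 higher and 4 lower, against 58.8% of all genes, 29.2% higher and 29.6% lower. All 9 were called at 40 h, 4 higher and 5 lower, against 68.8% of all genes, 34.1% higher and 34.7% lower. For serum/LIF+2i, 5 were called at 12 h, 2 higher and 3 lower, against 51.2% of all genes, 25.3% higher and 25.9% lower. At 24 h 8 were called, 4 higher and 4 lower, against 64.4%, 32.4% higher and 32.0% lower. Again all 9 were called at 40 h, 5 higher and 4 lower, against 70.5%, 35.3% higher and 35.3% lower. Since most genes moved, these counts are read only as an account of the 9. At 40 h the median log2 fold change of the 9 was -0.12 for 2i/LIF and 0.19 for serum/LIF+2i, beside medians of 0.01 and -0.00 over all genes tested. Comparisons within a medium share their 0 h libraries, so values at the 3 times are given side by side.

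**Figure D2:**
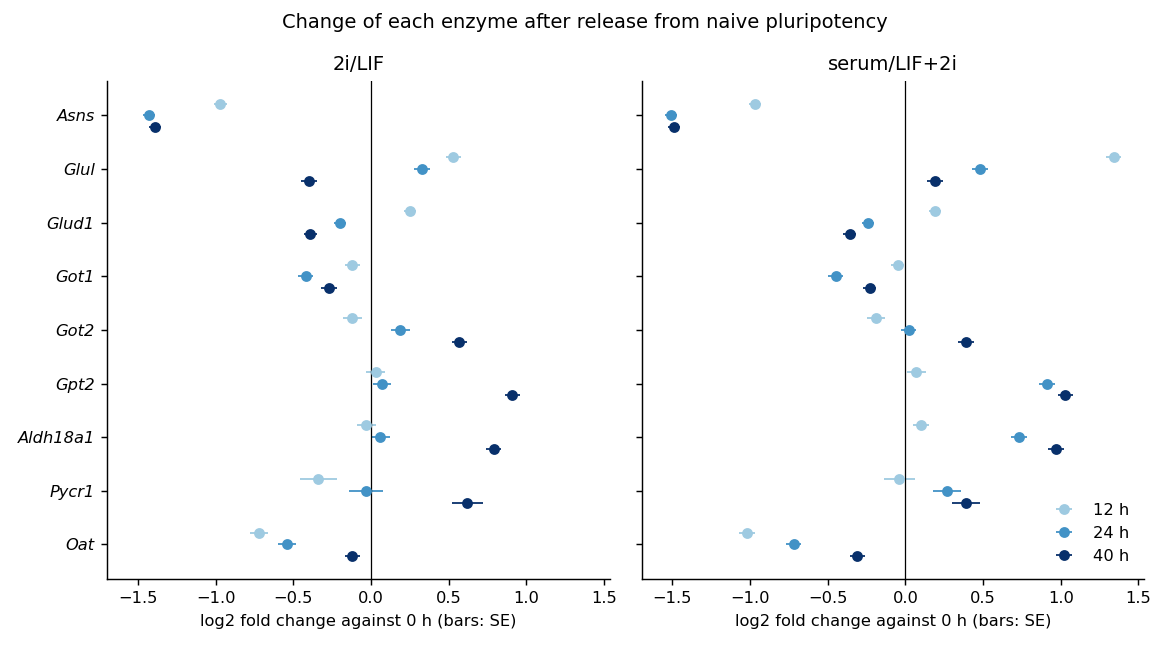
Log2 fold change of each enzyme against 0 h (horizontal axis) at 12, 24 and 40 h (light to dark points) in 2i/LIF and serum/LIF+2i. Bars are standard errors. Asns lay left of 0 at all times in both media, Got1 and Got2 ended on opposite sides, and Glul passed from right to left of 0 in 2i/LIF.

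Asns (Entrez 27053, GRCm38 chr6:7675165-7693209, minus strand) fell in both media. In 2i/LIF its libraries were at 1269 and 1266 CPM at 0 h, 639.7 and 652 at 12 h, 469.9 and 469 at 24 h and 455 and 513 at 40 h. After serum/LIF+2i they were at 1592 and 1634 CPM at 0 h, 819 and 828 at 12 h, 549.9 and 586 at 24 h and 563 and 581 at 40 h. Every later library was below both 0 h libraries of its medium, and libraries at 24 and 40 h overlapped. In 2i/LIF the log2 fold change was -0.97 ± 0.04 (SE) at 12 h, -1.43 ± 0.04 at 24 h and -1.39 ± 0.04 at 40 h, where the fall was 2.62-fold with an adjusted p of 3.5e-60 (edgeR). For serum/LIF+2i it was -0.97 ± 0.04, -1.51 ± 0.04 and -1.49 ± 0.04, a 2.82-fold fall at 40 h (adjusted p 3.2e-64). The fall thus took place in the first 24 h. Between 12 and 24 h the log2 change of Asns was -0.46 for 2i/LIF and -0.54 for serum/LIF+2i, whereas from 24 to 40 h the difference was 0.04 (95% interval -0.03 to 0.12) and 0.01 (-0.06 to 0.08) and was not called. Without 2i/LIF 40 h replicate 1, the 24 to 40 h step in 2i/LIF was called at 0.14 (adjusted p 0.00564). By RPKM, Asns ranked 49th of 14288 genes at 0 h in 2i/LIF and 223rd at 40 h, and 38th and 148th in serum/LIF+2i.

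Asns was higher in serum/LIF+2i than in 2i/LIF at all 4 times. The log2 difference was 0.35 ± 0.04 at 0 h (adjusted p 1.6e-14), 0.35 ± 0.04 at 12 h, 0.27 ± 0.04 at 24 h and 0.24 ± 0.04 at 40 h (adjusted p 7.6e-08), and at each time both serum/LIF+2i libraries lay above both 2i/LIF libraries. The change after release did not differ detectably between the media. The difference in change was 0.00 (95% interval -0.10 to 0.10) at 12 h, -0.07 (-0.18 to 0.03) at 24 h and -0.10 (-0.21 to -0.00) at 40 h, with adjusted p 0.997, 0.348 and 0.128. Without 2i/LIF 40 h replicate 1, the difference at 40 h was called at -0.20 (adjusted p 0.00302).

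The promoter of Asns holds a sequence with the letters of a C/EBP-ATF response element, TGATGNAA, and is shown because this is the element through which Asns is known to answer ATF4. The 250 bases before the RefSeq start site (chr6:7693210-7693459, GRCm38.p6, minus strand, written 5′ to 3′ on the gene's strand) are printed with the match in capitals.
Asns: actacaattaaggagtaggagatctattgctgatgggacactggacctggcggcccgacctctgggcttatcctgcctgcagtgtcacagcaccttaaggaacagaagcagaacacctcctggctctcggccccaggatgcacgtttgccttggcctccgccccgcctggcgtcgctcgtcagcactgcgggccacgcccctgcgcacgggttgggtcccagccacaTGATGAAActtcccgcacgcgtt
The match began 23 bases before the start site. The motif was searched on both strands in RefSeq promoters of 300 bases, 250 before and 50 after the start. It was found in 3.97% of 32851 promoters and, per gene, in 2.7% of the 10940 tested genes with a promoter entry. All 9 enzymes had an entry, and 3 had a match: Asns, Got1 and Pycr1. Of 24 amino acid response genes with an entry, 7 had a match: Trib3, Chac1, Atf3, Slc7a11, Vldlr, Nupr1 and Fgf21. The enzymes' matches are set below beside those of Chac1, Atf3, Slc7a11 and Vldlr, which are also among the response genes with the largest changes at 40 h, in 30-base stretches on each gene's strand with the match in capitals (TTGCATCA is TGATGCAA read on the other strand).
Asns: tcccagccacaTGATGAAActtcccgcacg
Got1: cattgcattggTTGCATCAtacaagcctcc
Pycr1: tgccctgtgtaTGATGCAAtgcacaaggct
Chac1: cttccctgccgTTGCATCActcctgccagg
Atf3: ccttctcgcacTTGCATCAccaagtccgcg
Slc7a11: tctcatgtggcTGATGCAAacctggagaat
Vldlr: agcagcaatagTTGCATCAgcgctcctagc
The Asns match (chr6:7693225-7693232) read TGATGAAA, and the Got1 (chr19:43524700-43524707, 102 bases before the start, opposite strand) and Pycr1 (chr11:120643844-120643851, 103 bases before the start) matches read TGATGCAA. The 4 response genes shown, Nupr1 and Fgf21 also read TGATGCAA, and Trib3 read TGATGTAA. Slc7a11 had 2 matches, both TGATGCAA, of which only the one further from the start is printed. Vldlr also had another RefSeq promoter, which held no match. The 3 enzymes with a match did not move together: at 40 h Asns and Got1 had fallen and Pycr1 had risen in both media. A match describes letters only, and the absence of one in the windows of Glul, Glud1, Got2, Gpt2, Aldh18a1 and Oat says only that those letters are not there.

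Asns was set beside 28 genes of the amino acid response, a list that does not hold Asns and of which all 28 were tested. In 2i/LIF 13 of them were called at 12 h (12 higher, 1 lower), 20 at 24 h (19 higher, 1 lower) and 26 at 40 h (25 higher, 1 lower), against 44.7%, 58.8% and 68.8% of all genes, with median log2 fold changes of 0.22, 0.36 and 1.15. The share called in either direction at 12 h was thus near that of all genes, but the split by direction was not. At 12 h in 2i/LIF 12 of the 28 were higher and 1 lower, where 21.0% of all genes were higher and 23.7% lower. In serum/LIF+2i 21 were called at 12 h (19 higher, 2 lower), and 28 of 28 were called and higher at both 24 and 40 h. Fgf21, 1 of the 28, had only 0 to 32 counts over the libraries. Its calls rest on values near the floor and add little to these counts. Of all genes, 51.2%, 64.4% and 70.5% were called at 12, 24 and 40 h, and 25.3%, 32.4% and 35.3% were called higher. The list medians were 0.51, 1.65 and 1.56, where the median of all genes was between -0.00 and 0.01. The members that fell were Nupr1, a stress-induced chromatin protein, at 12 h in both media (-0.50 ± 0.13 for 2i/LIF, -0.31 ± 0.12 for serum/LIF+2i), Atf3 at 12 h in serum/LIF+2i (-2.07 ± 0.36), Ddit3, encoding CHOP, at 24 h in 2i/LIF (-0.59) and Ppp1r15a at 40 h in 2i/LIF. Of these, the fall of Nupr1 in serum/LIF+2i was not called by DESeq2, nor without replicate 2 at 0 h (-0.13) or without either replicate at 12 h (-0.30 each), and that of Ddit3 not without 2i/LIF 0 h replicate 2 (-0.49) or replicate 1 at 24 h (-0.28). Atf3 was low already at 0 h in serum/LIF+2i (4.55 ± 1.25 CPM), so its fall ended near the floor. Leaving out each library in turn gave -2.57 to -1.59 for it. Nupr1, Atf3 at 12 h and Ddit3 were named after their values were seen. At 24 and 40 h in serum/LIF+2i, the log2 fold change of Asns was -1.51 and -1.49, while 0 of the 28 were lower. The fall of Asns beside amino acid response genes was known when the set was chosen, so this contrast is a description. At 40 h in 2i/LIF the single lower member was Ppp1r15a, a subunit of the eIF2alpha phosphatase, at -0.49 ± 0.10, against -1.39 for Asns.

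The response genes with the largest changes at 40 h rose in both media. Chac1, which degrades glutathione, was at 10.0 ± 1.73 CPM before release and 114 ± 5.64 by 40 h in 2i/LIF, and the serum/LIF+2i values were 7.79 ± 1.87 and 128 ± 9.34. Slc7a11, the cystine and glutamate exchanger, changed by 2.70 ± 0.18 and 3.99 ± 0.17 on the log2 scale, Stc2 by 2.87 ± 0.13 and 4.22 ± 0.14, Cebpb by 3.30 ± 0.32 and 3.49 ± 0.25, Vldlr by 2.27 ± 0.15 and 3.58 ± 0.16, and Atf3 by 2.79 ± 0.27 and 3.00 ± 0.16. These genes started low. At 0 h in 2i/LIF and serum/LIF+2i, Cebpb was at 1.03 ± 0.479 and 1.54 ± 0.520 CPM and Atf3 at 1.81 ± 0.847 and 4.55 ± 1.25. Ppp1r15a, in contrast to its fall in 2i/LIF, rose by 0.76 ± 0.08 in serum/LIF+2i. Atf4 mRNA itself, named after its values were seen, rose by 0.84 ± 0.04 and 1.05 ± 0.04. Over the 8 group means of log2 CPM, the Pearson correlation with Asns was negative for all 28 genes, from -0.126 for Ppp1r15a to -0.940 for Slc38a2, and was -0.808 for Atf4. The value for Fgf21 (-0.858) rests on 0 to 32 counts over the libraries. These 8 points share the same libraries and time course, and the values are a description.

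**Figure D3:**
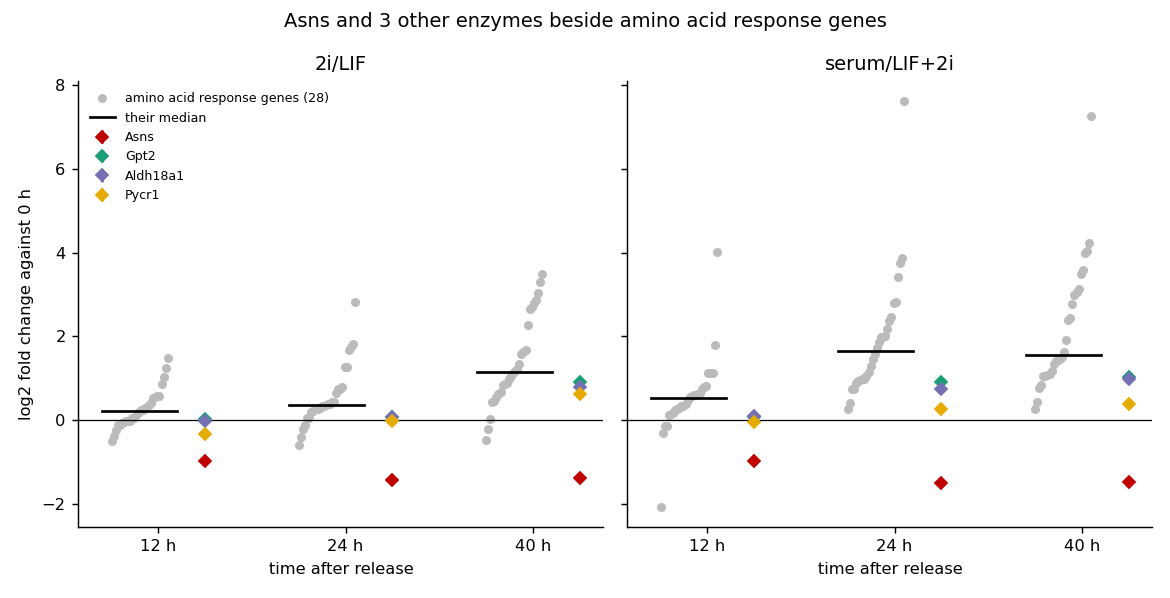
Log2 fold change against 0 h (vertical axis) at 12, 24 and 40 h in each medium for the 28 amino acid response genes (grey points, with their median as a bar) and for Asns, Gpt2, Aldh18a1 and Pycr1 (diamonds). Asns lay below 0 at each time, and Gpt2 and Aldh18a1 lay at 0.91 and 0.79 at 40 h in 2i/LIF and at 1.03 and 0.97 in serum/LIF+2i.

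Glul (Entrez 14645, GRCm38 chr1:153899929-153909723, plus strand) rose by 12 h in both media and then fell back. In 2i/LIF it was at 169.7 and 155 CPM at 0 h, 238 and 230.5 at 12 h, 200.1 and 206 at 24 h and 121 and 123 at 40 h. The serum/LIF+2i libraries were at 97.7 and 103 CPM at 0 h, 253 and 256 at 12 h, 143 and 137 at 24 h and 112 and 117 at 40 h. Libraries of the 4 times did not overlap within either medium, and 40 h lay below 0 h in 2i/LIF but above it in serum/LIF+2i. The log2 fold change against 0 h was 0.53 ± 0.05, 0.33 ± 0.05 and -0.40 ± 0.05 in 2i/LIF (adjusted p 3.7e-18, 8.8e-09 and 2.8e-11, edgeR). For serum/LIF+2i it was 1.34 ± 0.05, 0.48 ± 0.05 and 0.19 ± 0.05 (adjusted p 5.2e-49, 5.1e-14 and 0.00121). The 2.54-fold rise at 12 h in serum/LIF+2i was the largest rise from 0 h of any of the 9 genes in the fit.

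Before release, Glul was 1.61-fold lower in serum/LIF+2i (log2 difference -0.69 ± 0.06, adjusted p 5.5e-21). At 12 h the difference was 0.12 ± 0.04 (adjusted p 0.0274), at 24 h -0.54 ± 0.05 and at 40 h -0.10 ± 0.05, which was not called. The difference at 12 h was not called by DESeq2, nor without replicate 2 of 2i/LIF (0.10) or replicate 1 (0.13) or 2 (0.11) of serum/LIF+2i. The change after release differed between media by 0.81 ± 0.07 at 12 h (adjusted p 2.2e-17) and 0.59 ± 0.08 at 40 h (adjusted p 1.2e-10), and at 24 h by 0.15 (95% interval 0.01 to 0.30), which was not called (adjusted p 0.139) except without 2i/LIF 0 h replicate 2 (0.23). Glul overlaps Teddm2 on the opposite strand by 116 exon bases in GENCODE, and Teddm2 had 0 counts in all libraries. How the counting treated strand is not given in the sources used here.

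Glud1 (Entrez 14661, chr14:34310727-34345033, plus strand) followed the same course in both media, up at 12 h and then down. In 2i/LIF its libraries were at 445 and 449 CPM at 0 h, 532 and 535 at 12 h, 396 and 384 at 24 h and 345 and 337 at 40 h. After serum/LIF+2i they were at 421 and 417, 478 and 479, 351 and 358, and 327 and 326 CPM. No libraries of different times overlapped within a medium. The log2 fold change at 12, 24 and 40 h was 0.25, -0.20 and -0.39 for 2i/LIF and 0.19, -0.24 and -0.36 for serum/LIF+2i, each ± 0.04 and called, with an adjusted p at 40 h of 2.6e-17 and 7.4e-16 (edgeR). The changes of the media differed by -0.06 (95% interval -0.17 to 0.04), -0.05 (-0.15 to 0.06) and 0.03 (-0.07 to 0.14), none of which was called. Glud1 was slightly lower in serum/LIF+2i, by -0.09 at 0 h, -0.16 at 12 h and -0.14 at 24 h, and by -0.06 at 40 h, which was not called. The 0 h difference had an adjusted p of 0.0442 and was lost by DESeq2 and without any of the 4 libraries compared (-0.10 to -0.09), and the 24 h difference was lost without replicate 1 of 2i/LIF (-0.10) or replicate 1 of serum/LIF+2i (-0.11).

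The pair of aspartate aminotransferases moved apart. Got1, the cytosolic enzyme (Entrez 14718, chr19:43499752-43524605, minus strand), was at 244 and 243 CPM at 0 h in 2i/LIF, 218 and 230.5 at 12 h, 183 and 179.9 at 24 h and 193 and 211 at 40 h. Got1 in the serum/LIF+2i libraries, in the same order of times, was at 255 and 259, 242 and 254, 184 and 192, and 229 and 207 CPM. It was lowest at 24 h in both media, and all libraries at 24 and 40 h lay below those at 0 h. In 2i/LIF, Got1 changed by -0.42 ± 0.05 by 24 h and -0.27 ± 0.05 by 40 h (adjusted p 1.2e-13 and 1.8e-07, edgeR), and for serum/LIF+2i by -0.45 ± 0.05 and -0.23 ± 0.04 (adjusted p 3.6e-16 and 1.3e-06). From 24 to 40 h it rose by 0.15 ± 0.05 after 2i/LIF and 0.21 ± 0.04 after serum/LIF+2i, the former not called without 2i/LIF 40 h replicate 2 (0.10). At 12 h the change was -0.12 ± 0.05 in 2i/LIF (adjusted p 0.0306), which was not called by DESeq2 nor in 10 of 16 fits that each left out 1 library (-0.10 to -0.08), and -0.05 ± 0.04 in serum/LIF+2i, which was not called.

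Got2, the mitochondrial enzyme (Entrez 14719, chr8:95864133-95888401, minus strand), was at 118 and 121 CPM at 0 h in 2i/LIF, 108 and 112 at 12 h, 133 and 139.8 at 24 h and 181 and 174 at 40 h. The serum/LIF+2i libraries, in the same order of times, were at 118 and 127, 104 and 110.0, 126 and 123, and 163 and 157 CPM. Libraries at 40 h were above all earlier ones in both media. In 2i/LIF, Got2 rose by 0.19 ± 0.06 by 24 h and 0.57 ± 0.05 by 40 h (adjusted p 0.00209 and 4.5e-18, edgeR). After serum/LIF+2i, Got2 fell at 12 h by 0.19 (SE 0.06), lay at 0.02 at 24 h without a call and rose by 0.39 ± 0.05 at 40 h (adjusted p 3.8e-11). The 12 h fall was not called without replicate 2 at 0 h (-0.13) or replicate 1 at 12 h (-0.14) of serum/LIF+2i. Between 24 and 40 h Got2 rose by 0.38 ± 0.05 and 0.37 ± 0.05. In GENCODE the unclassified transcript Gm45760, which is not a row of the count table, lies on the strand opposite to Got2 and shares 434 exon bases with it.

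Between the media, Got1 was higher in serum/LIF+2i at 12 h (0.14 ± 0.04) and at 40 h (0.11 ± 0.04, adjusted p 0.0424, with overlapping libraries), and Got2 was lower at 24 h (-0.13 ± 0.05, adjusted p 0.0411) and 40 h (-0.15 ± 0.05). None of these 4 was called by DESeq2. Leaving out 1 library ended the call of Got1 at 40 h in 10 of 16 fits (0.03 to 0.11) and of Got2 at 24 h in 11 of 16 (-0.16 to -0.09). It ended that of Got1 at 12 h without replicate 1 of 2i/LIF (0.11) or replicate 2 of serum/LIF+2i (0.10), and of Got2 at 40 h without replicate 1 of 2i/LIF (-0.13) or replicate 2 of serum/LIF+2i (-0.12). The other between-media values of Got1, 0.08 at 0 h and 0.05 at 24 h, were not called.

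Gpt2 (Entrez 108682, chr8:85492576-85528902, plus strand), which makes alanine and 2-oxoglutarate from glutamate and pyruvate in mitochondria, rose in both media, earlier in cells from serum/LIF+2i. In 2i/LIF it was at 143 and 126 CPM at 0 h, 134 and 139 at 12 h, 144 and 138 at 24 h and 248 and 256 at 40 h. Gpt2 in the serum/LIF+2i libraries, in the same order of times, was at 109 and 117, 114 and 123, 206 and 218, and 235 and 227 CPM. The 24 h libraries lay with the 0 and 12 h libraries in 2i/LIF and apart from them in serum/LIF+2i. The log2 fold change in 2i/LIF was 0.03 at 12 h and 0.07 at 24 h, neither called, and 0.91 ± 0.05 at 40 h (adjusted p 1.3e-33, edgeR). Without 2i/LIF 0 h replicate 1, the 24 h change was called at 0.18. After serum/LIF+2i, Gpt2 was at 0.07 at 12 h, not called, 0.91 ± 0.05 at 24 h (adjusted p 5.3e-33) and 1.03 ± 0.05 at 40 h (adjusted p 9.5e-39). From 12 to 24 h Gpt2 rose by 0.84 ± 0.05 in serum/LIF+2i and differed by 0.05 in 2i/LIF, and from 24 to 40 h it rose by 0.84 ± 0.05 in 2i/LIF and by 0.13 ± 0.04 in serum/LIF+2i. The last step was not called by DESeq2, nor without serum/LIF+2i 24 h replicate 1 (0.07) or 40 h (0.09).

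Aldh18a1 (Entrez 56454, chr19:40550257-40588463, minus strand) encodes the synthase that converts glutamate to the common precursor of proline and ornithine, and its course resembled that of Gpt2. In 2i/LIF it was at 117 and 126 CPM at 0 h, 118 and 121 at 12 h, 122 and 132 at 24 h and 198 and 223 at 40 h. The serum/LIF+2i libraries, in the same order of times, were at 125 and 133, 135 and 141, 209 and 219.6, and 256 and 251 CPM. Only the 40 h libraries stood apart in 2i/LIF, whereas those of 24 and 40 h both did in serum/LIF+2i. The log2 fold change in 2i/LIF was -0.03 and 0.06 at 12 and 24 h, neither called, and 0.79 ± 0.05 at 40 h (adjusted p 8.8e-27, edgeR). For cells from serum/LIF+2i it was 0.10 at 12 h, not called, 0.73 ± 0.05 at 24 h (adjusted p 6.6e-26) and 0.97 ± 0.05 at 40 h (adjusted p 1.2e-36). Over the 8 group means, Aldh18a1 correlated at a Pearson r of 0.911 with Gpt2 and 0.899 with Pycr1.

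Pycr1 (Entrez 209027, chr11:120638998-120643748, minus strand), a reductase of the last step of proline synthesis, was the least abundant of the 9 genes. In 2i/LIF it was at 29.8 and 33.3 CPM at 0 h, 24.3 and 25.8 at 12 h, 28.6 and 33.6 at 24 h and 44.0 and 53.4 at 40 h. Pycr1 in the serum/LIF+2i libraries, in the same order of times, was at 33.2 and 43.5, 38.2 and 36.6, 45.2 and 47.1, and 51.8 and 48.8 CPM. The 40 h libraries were the highest in both media, and the replicates at 0 h in serum/LIF+2i were far apart. Pycr1 fell by 0.34 (SE 0.12) at 12 h in 2i/LIF (adjusted p 0.0138, edgeR), lay at -0.03 at 24 h without a call and rose by 0.62 ± 0.10 at 40 h (adjusted p 9.3e-08). For cells from serum/LIF+2i, Pycr1 was at -0.04 at 12 h, not called, and rose by 0.27 ± 0.09 at 24 h (adjusted p 0.00921) and 0.39 ± 0.09 at 40 h (adjusted p 7.1e-05). The 12 h fall in 2i/LIF was not called by DESeq2, nor without replicate 2 at 0 h (-0.23) or replicate 1 at 12 h (-0.29). The rises in serum/LIF+2i were not called without serum/LIF+2i 0 h replicate 1 (0.10 at 24 h and 0.22 at 40 h), and the 24 h rise was not called by DESeq2.

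Oat (Entrez 18242, chr7:132557475-132576398, minus strand), ornithine aminotransferase, fell early and then recovered. In 2i/LIF it was at 183 and 177 CPM at 0 h, 105 and 114 at 12 h, 115 and 133 at 24 h and 166 and 166 at 40 h. The serum/LIF+2i libraries, in the same order of times, were at 205 and 215, 110.0 and 97.8, 128 and 126, and 169.8 and 168 CPM. All later libraries were below the 0 h libraries of their medium. The log2 fold change was -0.72 ± 0.06, -0.54 ± 0.06 and -0.12 ± 0.05 in 2i/LIF (adjusted p 4.0e-22, 1.2e-15 and 0.0383, edgeR). For serum/LIF+2i it was -1.02 ± 0.05, -0.72 ± 0.05 and -0.31 ± 0.05 (adjusted p 6.9e-35, 1.8e-25 and 8.7e-09). The small 40 h fall in 2i/LIF was not called by DESeq2, nor in 12 of 16 fits that each left out 1 library (-0.12 to -0.06). From 24 to 40 h Oat rose by 0.42 ± 0.05 after 2i/LIF and 0.41 ± 0.05 after serum/LIF+2i. At 12 h Oat fell where Glul rose, and their Pearson r over the 8 group means was -0.871, the most negative of the 36 pairs among the 9 genes. The courses were not opposite throughout, since at 40 h in 2i/LIF both genes lay below 0 h. Oat lies within the span of Fgfr2 in GENCODE on the same strand, and they share 0 exon bases.

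The steps between successive times were also tested. From 12 to 24 h, 7 of the 9 genes were called for 2i/LIF, 3 higher and 4 lower, against 35.1% of all genes, 17.4% higher and 17.7% lower. All 9 were called in that step for serum/LIF+2i, 5 higher and 4 lower, against 48.4%, 24.2% higher and 24.2% lower. From 24 to 40 h, 8 were called for 2i/LIF, 6 higher and 2 lower, against 46.7%, 22.2% higher and 24.5% lower, and 7 for serum/LIF+2i, 5 higher and 2 lower, against 50.5%, 25.9% higher and 24.6% lower. Glul fell in both steps in both media, by 0.20 and 0.73 on the log2 scale in 2i/LIF and by 0.87 and 0.29 in serum/LIF+2i. Glud1 also fell in both steps, by 0.45 and 0.19 in 2i/LIF and by 0.43 and 0.12 in serum/LIF+2i, the last not called without serum/LIF+2i 24 h replicate 2 (-0.11) or with library size only (-0.07). Got1 fell from 12 to 24 h by 0.31 and 0.40, and Got2 rose by 0.31 and 0.21. Aldh18a1 rose by 0.63 from 12 to 24 h in serum/LIF+2i and differed by 0.08, not called, in 2i/LIF, and it rose by 0.73 from 24 to 40 h in 2i/LIF and by 0.24 in serum/LIF+2i. Pycr1 rose by 0.31 from 12 to 24 h in both media, then by 0.65 in 2i/LIF, and was at 0.12 without a call in serum/LIF+2i. Oat rose from 12 to 24 h by 0.18 and 0.29. In 2i/LIF the 12 to 24 h rises of Pycr1 and Oat were not called by DESeq2, nor without replicate 1 of the 12 h group (0.26 and 0.12) or replicate 2 of the 24 h group (0.19 and 0.07), and that of Pycr1 also not without replicate 2 of the 12 h group (0.35).

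The medium comparison at each time asked which enzymes differed between cells with different maintenance histories. Of the 9 genes, 6 were called at 0 h, 3 higher and 3 lower in serum/LIF+2i, against 33.0% of all genes, 14.6% higher and 18.4% lower. At 12 h 7 were called, 5 higher and 2 lower, against 30.3%, 14.8% higher and 15.5% lower. Likewise 7 were called at 24 h, 4 higher and 3 lower, against 31.1%, 14.1% higher and 17.0% lower, and 5 at 40 h, 3 higher and 2 lower, against 27.3%, 13.9% higher and 13.4% lower. The count at 0 h was 3 without 2i/LIF 0 h replicate 1, that at 12 h was 4 without serum/LIF+2i 12 h replicate 2, and that at 40 h was 3 without replicate 1 of 2i/LIF or replicate 2 of the other medium at that time, and 2 by DESeq2. At 24 h Aldh18a1, Gpt2 and Pycr1 were higher in serum/LIF+2i, with log2 differences of 0.76 ± 0.05, 0.59 ± 0.05 and 0.58 ± 0.10 (adjusted p 7.4e-26, 1.8e-19 and 9.5e-07, edgeR). At 0 h Gpt2 was lower in serum/LIF+2i (-0.25 ± 0.06), also at 12 h (-0.21 ± 0.05) and at 40 h (-0.12 ± 0.04). The call of Gpt2 was lost at 0 h without replicate 1 of 2i/LIF (-0.14), at 12 h without replicate 1 of serum/LIF+2i (-0.16), and at 40 h by DESeq2 and without replicate 2 of 2i/LIF (-0.11) or of serum/LIF+2i (-0.10).

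Aldh18a1 was at 0.09 ± 0.06 between the media at 0 h, not called, and was higher in serum/LIF+2i at 12 h (0.21 ± 0.05) and 40 h (0.27 ± 0.05), the former not called without serum/LIF+2i 12 h replicate 2 (0.17). Pycr1 was higher in serum/LIF+2i at 12 h (0.58 ± 0.11, adjusted p 6.8e-06) and differed by 0.05 at 40 h, not called. At 0 h its difference was 0.28 ± 0.11 (adjusted p 0.0411) with overlapping libraries, and it was not called by DESeq2, nor without replicate 1 (0.22) or 2 (0.36) of 2i/LIF or replicate 2 (0.07) of serum/LIF+2i. Oat was higher in serum/LIF+2i at 0 h (0.22 ± 0.05, adjusted p 3.2e-04), whereas at 40 h it differed by 0.02 (95% interval -0.07 to 0.12). The 3 enzymes higher in serum/LIF+2i at 0 h were therefore Asns, Pycr1 and Oat, and the 3 lower were Glul, Glud1 and Gpt2.

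**Figure D4:**
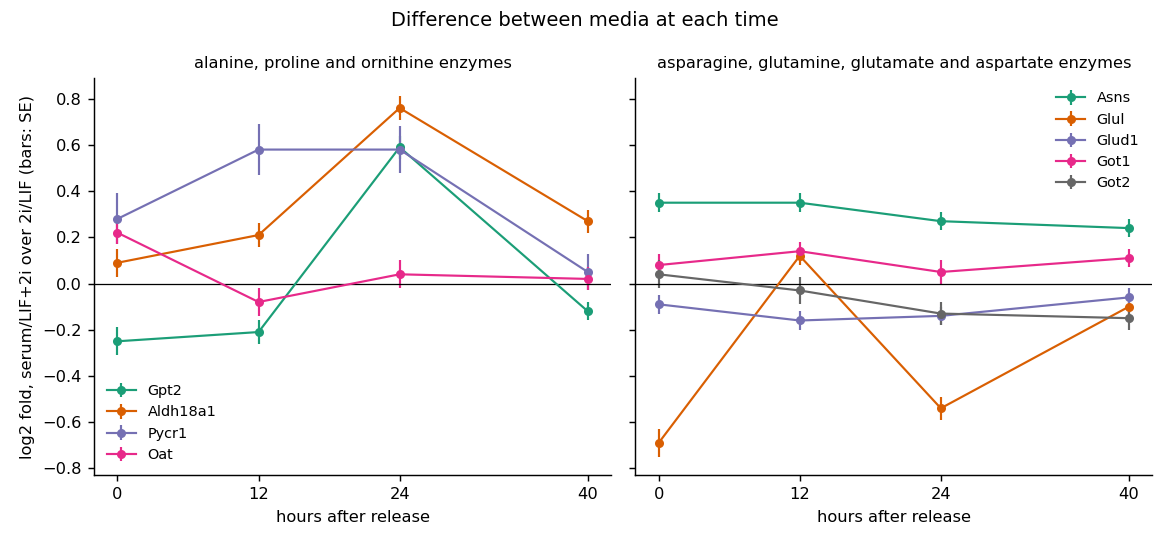
Log2 difference of serum/LIF+2i over 2i/LIF (vertical axis) at each time after release (horizontal axis) for the alanine, proline and ornithine enzymes and for the asparagine, glutamine, glutamate and aspartate enzymes. Bars are standard errors. Gpt2 and Aldh18a1 peaked at 24 h at 0.59 and 0.76, Glul had its lowest points at 0 and 24 h, and Asns stayed between 0.24 and 0.35.

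The difference between media in the change from 0 h was tested directly. At 12 h 2 of the 9 genes were called, Glul higher and Oat lower, against 9.20% of all genes, 4.80% higher and 4.40% lower. At 24 h 2 were called, Gpt2 and Aldh18a1, both higher, against 20.8%, 9.77% higher and 11.0% lower. At 40 h 3 were called, Glul and Aldh18a1 higher and Oat lower, against 27.6%, 14.8% higher and 12.8% lower. The count at 12 h was 1 by DESeq2 and without replicate 2 of either 12 h group, and the count at 40 h was 1 by DESeq2, without 2i/LIF 0 h replicate 2 and without serum/LIF+2i 40 h replicate 2. Gpt2 rose by 0.83 ± 0.08 more in serum/LIF+2i by 24 h (adjusted p 3.4e-17, edgeR) and Aldh18a1 by 0.67 ± 0.08 more (adjusted p 3.1e-12). At 40 h the difference for Aldh18a1 was 0.19 ± 0.07 (adjusted p 0.0477), and it was not called by DESeq2 nor in 13 of 16 fits that each left out 1 library (0.09 to 0.20). Oat fell further in serum/LIF+2i, by 0.30 more at 12 h (SE 0.08, adjusted p 0.00448) and by 0.20 more at 40 h (SE 0.07, adjusted p 0.0301), and neither was called by DESeq2. The 12 h difference of Oat was also lost without replicate 2 of 2i/LIF (-0.24) or of serum/LIF+2i (-0.22) at 12 h. The 40 h difference was also lost without replicate 2 of 2i/LIF (-0.18) or of serum/LIF+2i (-0.16) at 0 h and, at 40 h, without replicate 1 of 2i/LIF (-0.20) or replicate 2 of serum/LIF+2i (-0.19).

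The 2 step-wise differences between media were added after the time courses of Gpt2 and Aldh18a1 had been seen, and they only describe those courses. For the step from 12 to 24 h, 3 of the 9 genes were called, 2 higher and 1 lower, against 17.1% of all genes, 7.21% higher and 9.87% lower, with differences of 0.79 ± 0.07 for Gpt2, 0.55 ± 0.07 for Aldh18a1 and -0.66 ± 0.07 for Glul. For the step from 24 to 40 h, 4 were called, 1 higher and 3 lower, against 12.2%, 6.57% higher and 5.63% lower, with differences of -0.71 ± 0.07 for Gpt2, -0.49 ± 0.07 for Aldh18a1, -0.52 ± 0.13 for Pycr1 and 0.44 ± 0.07 for Glul. The difference for Pycr1 was not called by DESeq2, nor without 2i/LIF 24 h replicate 1 (-0.43) or replicate 2 of 2i/LIF at 40 h (-0.40). The signs of Gpt2 and Aldh18a1 were opposite in the 2 steps: most of their rise lay before 24 h in serum/LIF+2i and after it in 2i/LIF.

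The neighbours of the 9 genes in the same pathways changed in mixed directions at 40 h. Of 11 listed genes of glutamine and glutamate breakdown and mitochondrial carriers, 9 were tested, of which 8 were called in 2i/LIF (5 higher, 3 lower) and 7 in serum/LIF+2i (4 higher, 3 lower), with medians of 0.27 and 0.19. Of all genes tested, 68.8% and 70.5% were called at 40 h, 34.1% and 35.3% higher and 34.7% and 35.3% lower. Among the lower genes, Gad1 had at most 67 counts in any library and passed the filter only through the 0 h groups, where it is high. Abat, another of those tested, was also low, with 2 to 82 counts over the libraries. Slc25a12 and Slc25a13, mitochondrial aspartate and glutamate carriers that work with Got1 and Got2 in the malate-aspartate shuttle, changed by -0.35 ± 0.10 and -0.19 ± 0.05 in 2i/LIF and by -0.69 ± 0.09 and -0.81 ± 0.05 in serum/LIF+2i. In 2i/LIF the fall of Slc25a12 was not called without replicate 1 at 40 h (-0.22), nor that of Slc25a13 without replicate 2 at 0 h (-0.12). Got1l1, a Got1 relative, rose by 0.77 ± 0.21 and 0.67 ± 0.17. Gpt, the cytosolic partner of Gpt2, was at 0.35 ± 0.22 in 2i/LIF, not called, and 0.50 ± 0.23 in serum/LIF+2i (adjusted p 0.0439), the latter not called by DESeq2, nor without replicate 1 at 0 h (0.17) or without replicate 1 (0.53) or 2 (0.48) at 40 h. Slc25a18 did not pass the filter, and Glud2 was not a row of the table.

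All 9 listed enzymes that use the glutamine amide group were tested, and 7 were called in 2i/LIF (5 higher, 2 lower) and 8 in serum/LIF+2i (6 higher, 2 lower), beside 68.8% and 70.5% of all genes, with medians of 0.18 and 0.30. Gfpt2, of the hexosamine pathway, rose by 0.22 ± 0.08 in 2i/LIF and by 1.08 ± 0.10 in serum/LIF+2i, the former not called without replicate 2 at 0 h (0.15) or replicate 1 at 40 h (0.16). The CTP synthases Ctps2 (0.37 ± 0.09 and 0.80 ± 0.09) and Ctps (0.59 ± 0.05 and 0.30 ± 0.04) and the GMP synthase Gmps (0.70 ± 0.05 and 0.30 ± 0.04) rose in both media. Gfpt1, named after its values were seen, fell by 0.42 in 2i/LIF (SE 0.07) and rose by 0.43 ± 0.07 in serum/LIF+2i.

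Of 4 listed genes of proline synthesis and breakdown beside Aldh18a1 and Pycr1, 3 were tested, and all 3 were called in each medium (2 higher, 1 lower; 68.8% and 70.5% of all genes were called), with medians of 0.59 for 2i/LIF and 0.55 for serum/LIF+2i. Prodh, which starts proline breakdown, was at 9.79 ± 2.24 CPM at 0 h and 25.4 ± 1.00 at 40 h for 2i/LIF (a rise of 1.39 ± 0.15) and at 18.8 ± 0.00481 and 27.5 ± 0.831 for serum/LIF+2i (a rise of 0.55 ± 0.12), whereas Aldh4a1, which completes it, fell by 0.55 (SE 0.08) and 0.52 (SE 0.07). Pycrl (also named Pycr3), a further pyrroline-5-carboxylate reductase, rose by 0.59 ± 0.10 and 0.61 ± 0.10. Thus in each medium the precursor synthase Aldh18a1, the reductases Pycr1 and Pycrl and the oxidase Prodh all rose. Prodh2 did not pass the filter.

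Of 10 listed genes of asparagine, arginine and ornithine, 9 were tested (Otc had 0 counts), and 9 were called in 2i/LIF (8 higher, 1 lower) and 8 in serum/LIF+2i (7 higher, 1 lower), beside 68.8% and 70.5% of all genes, with medians of 0.47 and 0.55. Among the higher genes, Arg1 had 0 counts at 0 h and at most 35 in any library, and passed the filter only through the groups where it is high. Aspg (2 to 58 counts over the libraries) and Arg2 (1 to 46), also among the higher genes, were low as well. These counts and medians thus rest in part on genes near the floor. Which groups carried Aspg and Arg2 through the filter was not tested. The 1 lower gene in each medium was Ass1, argininosuccinate synthase, which like asparagine synthetase uses aspartate and ATP. Ass1 went from 63.2 ± 1.44 to 9.72 ± 0.468 CPM in 2i/LIF (-2.70 ± 0.12, adjusted p 1.1e-43, edgeR) and from 54.1 ± 0.609 to 10.8 ± 0.341 in serum/LIF+2i (-2.32 ± 0.11, adjusted p 2.0e-41). Asl, which takes the next step of arginine synthesis, rose by 0.21 ± 0.09 and 0.55 ± 0.09, the first not called by DESeq2, nor without replicate 1 at 0 h (0.18) or replicate 1 (0.22) or 2 (0.23) at 40 h. Odc1, which turns ornithine into putrescine, rose from 243 ± 5.32 to 659 ± 20.3 CPM (1.44 ± 0.04) and from 268 ± 14.6 to 588 ± 1.27 (1.14 ± 0.04). Asrgl1, an asparaginase, rose by 0.47 ± 0.10 and 0.45 ± 0.09. Asnsd1, a gene with an asparagine synthetase domain named after its values were seen, rose by 0.38 ± 0.06 in 2i/LIF and was at 0.06 ± 0.06 in serum/LIF+2i, not called, or called at 0.14 with library size only.

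**Figure D5:**
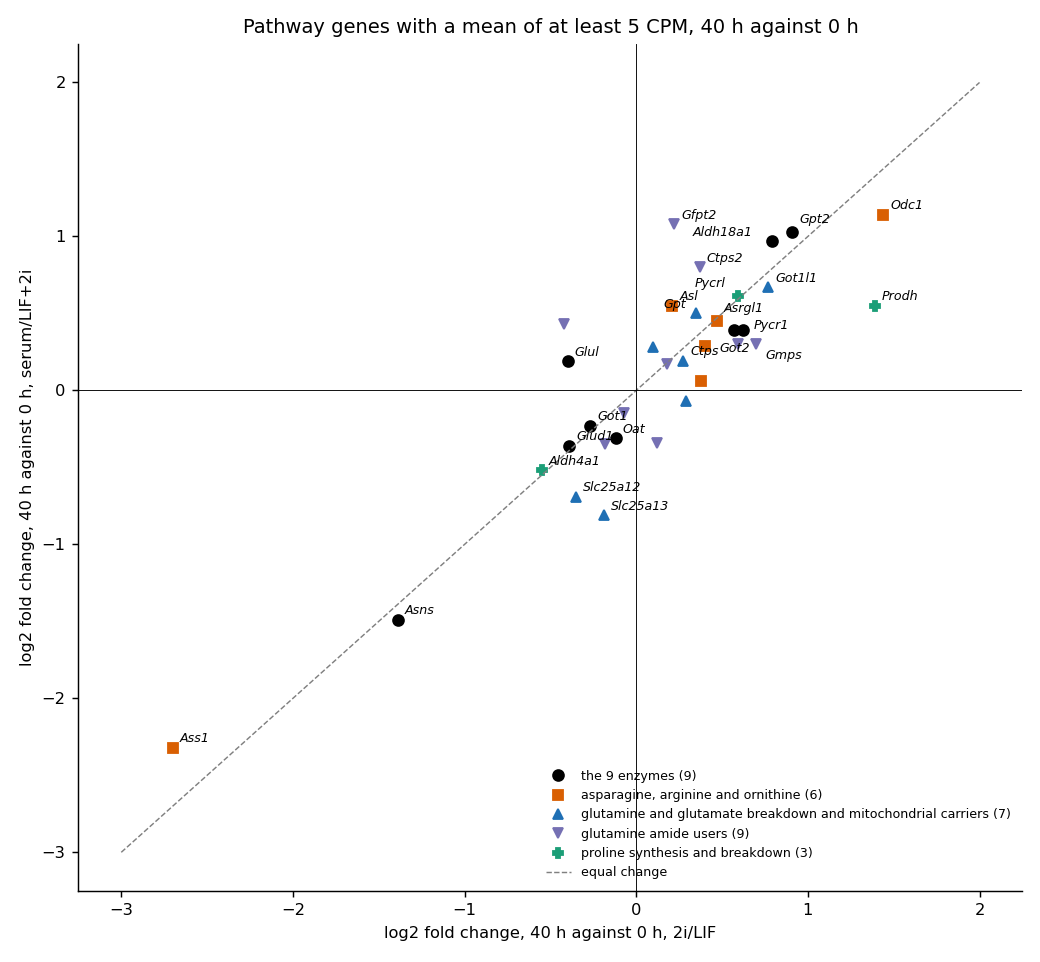
Log2 fold change at 40 h against 0 h in 2i/LIF (horizontal axis) and in serum/LIF+2i (vertical axis) for the 9 enzymes and the genes of 4 pathway lists with a mean of at least 5 CPM, with the dashed line at equal change. Asns and Ass1 lay at the lower left, Gpt2, Aldh18a1 and Odc1 at the upper right, and Glul left of 0 in 2i/LIF and above 0 in serum/LIF+2i.

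Genes with the most similar courses were named by Pearson's r over the 8 group means of log2 CPM among the 10768 genes whose mean reached 5 CPM. These points share one time course, and the values are a description. For Asns they were Rnpep (0.990), Tmem18 (0.990), Vps35 (0.989), Stam (0.988) and a gene without a symbol in the table, Entrez 100503911 (0.986), and Spearman's rho for them was 0.976, 1.00, 0.952, 0.929 and 0.976. Over all 16 libraries the first 4 were also the 4 closest, at 0.973 to 0.985, whereas the gene without a symbol was 283rd at 0.896. The closest to Gpt2 was the amino acid response gene Vldlr (0.990), followed by Fam83g (0.976) and Slx4ip (0.972), and the closest to Aldh18a1 was Sars (0.991), which encodes seryl-tRNA synthetase, followed by Dennd4a (0.989) and Otub2 (0.985). Slx4ip was 805th over the 16 libraries (0.802), whereas Vldlr and Sars were again the closest. Over group means the closest were Toe1 (0.969) for Glul, Ppp2r5e (0.994) for Glud1, Rhbdf2 (0.991) for Got1, Ide (0.985) for Got2, Osgepl1 (0.968) for Pycr1 and Map3k9 (0.991) for Oat. Over the 16 libraries these ranked 28th, 14th, 6th, 6th, 7th and 1st. For Got1 the second was Krt8 (0.989), a keratin that was also on the list of trophoblast markers. Among the 9 genes, Asns was most like Got1 (0.855), and its r with Gpt2 and Aldh18a1 was -0.675 and -0.512.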

How the data were processed

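The authors deposited 1 table of raw counts per gene with Entrez identifier, symbol and gene length, per the file headers. Per the submitters' processing notes, fastp, STAR, featureCounts and the build mm10 were used. Versions, the annotation and the strand setting are not given in the sources used here. TRIzol extraction and the TruSeq Stranded mRNA kit were used, per the labels. The protocol text lists 24 or 40 h for cells from serum, but samples titled 12 h exist for both media, and the titles were followed. All columns belonged to a library.

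Genes were kept with edgeR (4.0.16) filterByExpr (minimum count 10, minimum total 15), scaled by TMM and fitted in 1 quasi-likelihood model (robust) with a term for each of the 8 groups and 8 residual degrees of freedom. Tests and intervals used the total degrees of freedom, which add a prior estimated over all genes to these 8. The precision thus rests in part on the spread of other genes. The common biological coefficient of variation was 3.19%. Tests were two-sided. The standard error is the absolute log2 fold change divided by the square root of F. CPM and RPKM were computed from TMM-scaled totals. Log2 CPM used a prior count of 2. There were 19 comparisons, 2 of them added after the data were seen. The procedure was tested on simulated data. The members and gene lists were chosen with earlier results of these data known.

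Named pathway genes were, at 40 h and among those called in at least 1 medium whose mean reached 5 CPM, up to 4 per list (6 for the amino acid response, plus each that fell at 40 h) with the largest mean absolute change over both media, and the genes named after their values were seen. Of the pathway lists, 2 genes are not reported here and were left out of the counts. Likeness named 5 genes for Asns and up to 3 for each other. Promoters came from RefSeq (GRCm38.p6), the same assembly as mm10, and overlaps from GENCODE M21. Alternatives were DESeq2 (1.42.0), other scalings and filters, no ribosomal RNA genes, only the groups compared, a replicate block, a minimum change and each library left out.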

Additional observations from a re-analysis of the deposited data

Results flagged for a closer look

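The changes below differed between the 2 media by the test of the difference itself (edgeR, adjusted over all genes). Each value is the log2 change in serum/LIF+2i minus that in 2i/LIF. For Glul the change from 0 h differed by 0.81 at 12 h and 0.59 at 40 h, and the steps from 12 to 24 h and from 24 to 40 h by -0.66 and 0.44. For Gpt2 the change from 0 to 24 h differed by 0.83, the step from 12 to 24 h by 0.79 and that from 24 to 40 h by -0.71. For Aldh18a1 the change differed by 0.67 from 0 to 24 h, 0.19 from 0 to 40 h, 0.55 from 12 to 24 h and -0.49 from 24 to 40 h. For Oat it differed by -0.30 at 12 h and -0.20 at 40 h, and for Pycr1 the step from 24 to 40 h differed by -0.52. Both Oat values, the Pycr1 value and the Aldh18a1 value of 0.19 were not called by DESeq2. Each was also lost in some fits that left out 1 library, 2 and 4 of 16 for Oat at 12 and 40 h, 2 for Pycr1 and 13 for Aldh18a1. The steps were compared after the time courses had been seen.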

How the results depend on the processing

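The number of the 9 genes called in each comparison was recomputed under each alternative, and those that moved by over 1.5 times are given. With DESeq2 the count was 2 between media at 40 h and 1 for the difference in change from 0 to 12 h and from 0 to 40 h. With library size only it was 3 between media at 40 h. Requiring also a minimum absolute log2 fold change of 1 left, against 0 h, 0, 1 and 1 genes at 12, 24 and 40 h for 2i/LIF, 2, 1 and 2 for serum/LIF+2i, and 0 in every other comparison. Leaving out each library in turn gave 3 to 6 between media at 0 h, 4 to 7 at 12 h and 3 to 5 at 40 h, and 1 to 3 and 1 to 4 for the difference in change from 0 to 12 h and from 0 to 40 h. With the minimum change of 1, the list counts at 40 h, with 2i/LIF before serum/LIF+2i, came to 2 and 2 for glutamine and glutamate breakdown and carriers. They were 0 and 1 for glutamine amide users, 1 and 0 for proline and 5 and 4 for asparagine, arginine and ornithine. For the amino acid response the 2i/LIF counts at 12, 24 and 40 h were 2, 6 and 16, and that of serum/LIF+2i at 12 h was 5. The filter on a mean of 5 CPM, without a minimum change, gave 5 called for asparagine, arginine and ornithine at 40 h in serum/LIF+2i, where fewer were tested. These list counts were added after the data were seen. A group left with 1 library is assumed to vary like the others.

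Changes that were not called and near 0 changed sign. The difference between media in the change of Asns at 12 h was -0.01 with library size only, -0.03 with only the groups compared and -0.03 without ribosomal RNA genes, that of Asns from 24 to 40 h in serum/LIF+2i was -0.00 with no filter, and that of Aldh18a1 at 12 h in 2i/LIF was 0.00 without ribosomal RNA genes. Leaving out each library in turn gave -0.03 to 0.02 for the Asns difference at 12 h, -0.04 to 0.14 and -0.04 to 0.05 for Asns from 24 to 40 h in 2i/LIF and serum/LIF+2i, -0.05 to 0.05 for Aldh18a1 and -0.05 to 0.15 for Gpt2 at 12 h in 2i/LIF, -0.01 to 0.18 for Gpt2 and -0.14 to 0.09 for Pycr1 at 24 h in 2i/LIF, -0.21 to 0.17 for Pycr1 at 12 h and -0.02 to 0.08 for Got2 at 24 h in serum/LIF+2i, and -0.09 to 0.19 for Pycr1 between media at 40 h.

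Beside DESeq2 and left-out libraries, at least 1 other scaling, filter or fit ended the calls of Oat at 40 h and Got1 at 12 h in 2i/LIF, of Glud1 from 24 to 40 h in serum/LIF+2i, of Glud1 at 0 h, Glul at 12 h, Got2 at 24 and 40 h and Got1 and Gpt2 at 40 h between media, and of the Aldh18a1 difference from 0 to 40 h. The replicate block left the number of genes called at 9 in each medium at 40 h and changed 0 calls of single genes. Replicate numbers showed no sign of pairing the samples: over 28 pairs of groups, the correlation of same-numbered deviations ranged from -0.0230 to 0.0331. All genes tested were weighted alike in it, also those with low counts, so a weak pairing could go unseen. With 2 libraries per group, small differences are not resolved.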

Other observations

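Gad1, which converts glutamate to the transmitter GABA, lost nearly all of its signal on release. It was at 9.17 ± 0.781 CPM (SD, n = 2) at 0 h in 2i/LIF and at 0.339 ± 0.102 by 12 h, 0.284 ± 0.187 at 24 h and 0.131 ± 0.00752 at 40 h. In serum/LIF+2i it was at 9.11 ± 1.04 CPM at 0 h and 0.188 ± 0.116, 0.0553 ± 0.0782 and 0.178 ± 0.114 after release. The fitted log2 fold change at 40 h was -5.98 ± 0.51 and -5.53 ± 0.43, a value that depends on the prior count because the later groups are near 0. Gad1 passed the filter only through the 0 h groups, where it is high, so no p-value is given. Arg1, which splits arginine into ornithine and urea, had 0 counts at 0 h in both media and was at 0.773 ± 0.324 CPM at 40 h after 2i/LIF and 3.06 ± 0.0569 after serum/LIF+2i. Both genes are below the mean of 5 CPM used for naming and were named after their values were seen.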
